A study of Caenorhabditis elegans with 12 samples.

Results

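Transcript levels of 2 mutant strains of Caenorhabditis elegans, crh-1 null and tax-6 null, were compared directly, 3 arrays against 3. These 6 arrays were chosen by their titles from 12 in the series, which also holds WT (strain N2) and a strain labelled as over-expressing aak-2, an AMPK subunit (aak-2 o/e). In that strain the brighter of 2 aak-2 probe sets tested stood at 8.89, 8.43 and 8.46, against 9.20, 9.18 and 8.62 in WT. Where the probes lie relative to the transgene is not stated. The aak-2 o/e arrays enter the fit for the shared estimate of spread. The arrays labelled crh-1 null carry crh-1 (nn3315), and those labelled tax-6 null are RB1667, which carries tax-6 (ok2065). No treatment was applied. Each array measured a pool of 3000 whole worms at L4, the last larval stage, raised on OP50 bacteria from synchronised hatchlings at 750 per plate, and pools of a strain were prepared on separate days. Each mutant is a single strain, and how old the worms were within L4 when frozen is not stated. In whole worms, fewer cells of a type and less RNA per cell cannot be told apart.

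CRH-1 is the worm homologue of CREB, a transcription factor that binds cAMP response elements and works with the coactivator CRTC-1. TAX-6 is the catalytic subunit of calcineurin, a phosphatase that calcium and calmodulin switch on. Calcineurin removes phosphate from CRTC-1, the kinase AMPK adds it, and the state of CRTC-1 decides whether it can enter the nucleus and work with CRH-1. Calcineurin also acts on many other proteins in muscle, neurons and the gut of the worm, where its loss is known to alter body size, behaviour and fat. The series title places both genes in 1 longevity pathway, and the comparison asks where loss of the factor and loss of the phosphatase left different transcript levels.

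The strains differed widely. Of 10365 genes tested, 3933 (37.9%) passed an adjusted p of 0.05 and are here called, 2213 of them higher in crh-1 null (21.4%) and 1720 higher in tax-6 null (16.6%). Large differences leaned to tax-6 null, where 859 called genes were at least 2-fold higher (8.29%) and 343 at least 4-fold higher (3.31%). In crh-1 null 476 were at least 2-fold higher (4.59%) and 77 at least 4-fold higher (0.743%). Cuticle collagens, hedgehog-related genes, eggshell genes, yolk genes, neuropeptides and insulin-like peptides were mostly higher in tax-6 null. Enzymes that break down propionate and fatty acids, proteasome subunits, mitochondrial enzymes, chaperones of the endoplasmic reticulum and muscle genes were more often higher in crh-1 null. The ribosomal proteins of the cytosol did not pass the test in either direction.

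All levels are the deposited log2 values, so a step of 1 is a doubling, and a difference is crh-1 null minus tax-6 null ± SE with 3 arrays against 3. A positive difference is higher in crh-1 null. A value below 4 was taken as not detected, because dim probe sets crowd at a floor of 2.11. Where all 3 arrays of 1 strain lay below 4, the fold is a lower bound, "at least", reckoned from 4. The crh-1 null arrays correlated with each other at r = 0.993 to 0.994 across probe sets, which are not independent replicates. Among the tax-6 null arrays replicates 2 and 3 correlated at 0.994, but replicate 1 stood apart at 0.974 and 0.979. Its value lay outside the range of the other 2 for 83.9% of genes. Any 1 of 3 alike arrays would lie outside for most genes, and the share was not computed for other arrays. The weight of tax-6 null replicate 1, estimated by limma from the spread of its values, was 0.17 against 0.39 to 2.1 for the other 11 arrays. Without it 4029 genes were called, 2258 higher in crh-1 null and 1771 higher in tax-6 null, and 3437 of these genes were among the 3933. By their 95% intervals, 7470 of the 10365 genes (72.1%) differed by less than 2-fold either way. The median difference of all genes was 0.08.

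**Figure D1:**
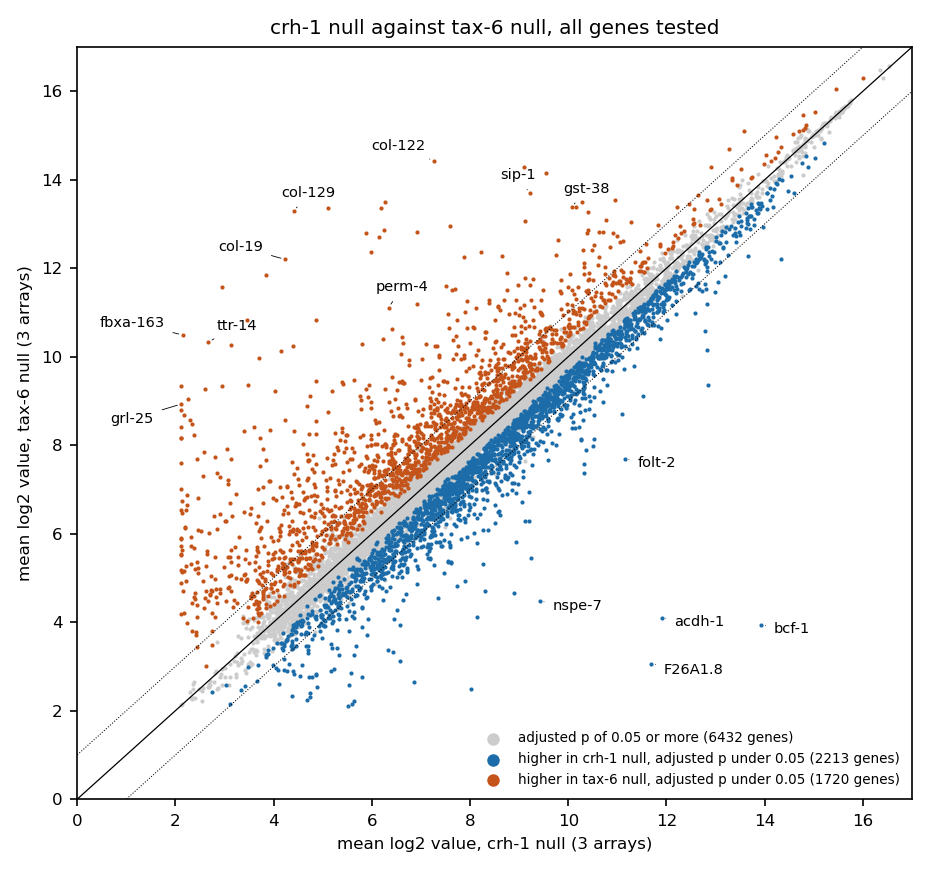
Mean log2 level of each of 10365 genes in crh-1 null (horizontal) and tax-6 null (vertical), 3 arrays each. Blue genes (2213) were called higher in crh-1 null, orange genes (1720) higher in tax-6 null and 6432 grey genes were not called. The solid line marks equal levels and the dotted lines a 2-fold difference. Among called genes, 859 lie 2-fold or more toward tax-6 null and 476 toward crh-1 null.

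The altered genes did not settle the labels. A probe set of crh-1 stood at 8.61, 8.43 and 8.81 in crh-1 null, at 7.66, 7.25 and 7.43 in tax-6 null and at 7.06, 7.18 and 7.24 in WT, so it was higher in the strain labelled null for it (1.17 ± 0.15, adjusted p = 8.28e-05). Another crh-1 probe set lay at 2.12 on every array. The tax-6 probe set was too dim for the test, at 3.60, 3.55 and 3.55 in crh-1 null and 3.43, 3.32 and 2.98 in tax-6 null. Where these probes lie relative to the deletions is not stated, so they check nothing, and every direction below rests on the array labels. Of 17 measured genes of the CREB, calcineurin and AMPK lists, 5 were called higher in tax-6 null, 1 (crh-1) higher in crh-1 null and 11 were not called. The share called, 35.3%, was near the 37.9% of all genes. The count of 5 was 3 without crh-1 null replicate 1 or 2 or tax-6 null replicate 2 or 3. The called genes included 3 regulatory subunits of AMPK, aakb-1 (-0.69 ± 0.13, adjusted p = 0.00163), aakg-4 (-1.31 ± 0.21, adjusted p = 0.000482) and aakg-5 (-0.45 ± 0.11, adjusted p = 0.00641). The calcineurin regulatory subunit cnb-1 was level, at 9.64, 9.81 and 9.68 against 9.94, 9.61 and 9.71 (-0.04 ± 0.13, adjusted p = 0.816). The calcineurin inhibitor rcan-1 stood at 8.81, 8.72 and 8.86 in crh-1 null and 8.94, 9.32 and 9.39 in tax-6 null. Its difference lay close to the threshold (-0.42 ± 0.15, adjusted p = 0.0419, and up to 0.141 under alternatives, with the call lost under 12 of 22).

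The widest gap in either direction was that of bcf-1. It stood at 13.92, 13.88 and 14 in crh-1 null, close to the WT mean of 13.99, and at 5.09, 3.37 and 3.35 in tax-6 null (10 ± 0.35, adjusted p = 1.8e-09). It was detected on all arrays of crh-1 null and WT and on 1 of 3 arrays of tax-6 null. F26A1.8 was 11.66, 11.80 and 11.60 in crh-1 null and 3.10, 3.10 and 2.98 in tax-6 null, at least 206-fold higher. In WT it also lay at 3.10 on each array, so between crh-1 null and tax-6 null it was crh-1 null that departed. F26A1.8 was also high in aak-2 o/e, with a mean of 8.26. acdh-1 encodes an acyl-CoA dehydrogenase of the propionate shunt and responds to dietary vitamin B12. Its level lay far below WT in tax-6 null and slightly below WT in crh-1 null (-0.80, adjusted p = 0.0153). It stood at 12.68, 12.65 and 12.77 in WT, 11.81, 12.10 and 11.80 in crh-1 null and 4.01, 3.98 and 4.30 in tax-6 null (7.81 ± 0.20, adjusted p = 1.55e-10, 224-fold, with 1 tax-6 null array below 4).

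Other genes were high in crh-1 null and lower in both WT and tax-6 null. B0222.10 stood at 8.17, 7.94 and 7.94 in crh-1 null, 4.08, 4.08 and 3.92 in WT and 2.50, 2.49 and 2.49 in tax-6 null, at least 16.2-fold. The peptide gene nspe-7 stood at 9.76, 8.99 and 9.51 against 4.39, 3.83 and 5.19 (4.95 ± 0.35, adjusted p = 5.46e-07), with 6.01, 5.64 and 5.22 in WT. The cation ATPase gene catp-3 stood at 9.37, 8.94 and 9.43 against 5.72, 4.21 and 6.39 (3.80 ± 0.55, adjusted p = 0.000227), with a WT mean of 4.56. This gene was also high in aak-2 o/e, at 9.14, 7.41 and 7.56. In B0222.10, nspe-7 and catp-3 the crh-1 null arrays lay above every array of WT and tax-6 null. The same was true of Y39B6A.9 (4.02 ± 0.22) and of cutl-6, a cuticlin-like gene (6.62, 6.25 and 6.38 against 3.03, 3.44 and 3.49, at least 5.35-fold). The srlf-34 difference (2.95 ± 0.75, adjusted p = 0.00908) was less even, with tax-6 null arrays at 7.85, 5.09 and 9.19, and it was 1.81 without tax-6 null replicate 2. Its call was lost when the fit held the 6 arrays compared alone (adjusted p = 0.0674).

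A further kind lay near the WT level in crh-1 null and low in tax-6 null. It included haf-6, an ABC transporter gene (8.89, 8.99 and 8.83 against 3.78, 5.39 and 4.77, 4.26 ± 0.29, adjusted p = 4.69e-07). The lipase gene lips-14 stood at 7.23, 6.69 and 6.64 against 2.44, 2.61 and 2.86, at least 7.22-fold. The folate transporter gene folt-2 stood at 11.09, 11.23 and 11.12 against 7.88, 7.45 and 7.73 (3.46 ± 0.15, adjusted p = 9.52e-09). Their groups were far apart, and none of the 3 was called between crh-1 null and WT (log2 differences -0.17, 0.38 and 0.33). A C-type lectin gene, clec-10, was 2.91 ± 0.10 higher in crh-1 null and Y102A5C.6 was 3.62 ± 0.31 higher. The aspartyl protease gene asp-17 was at least 3.47-fold higher in crh-1 null. The peroxisomal acyl-CoA oxidase gene acox-1.2 was 2.92 ± 0.21 higher in crh-1 null, with both strains below WT.

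**Figure D2:**
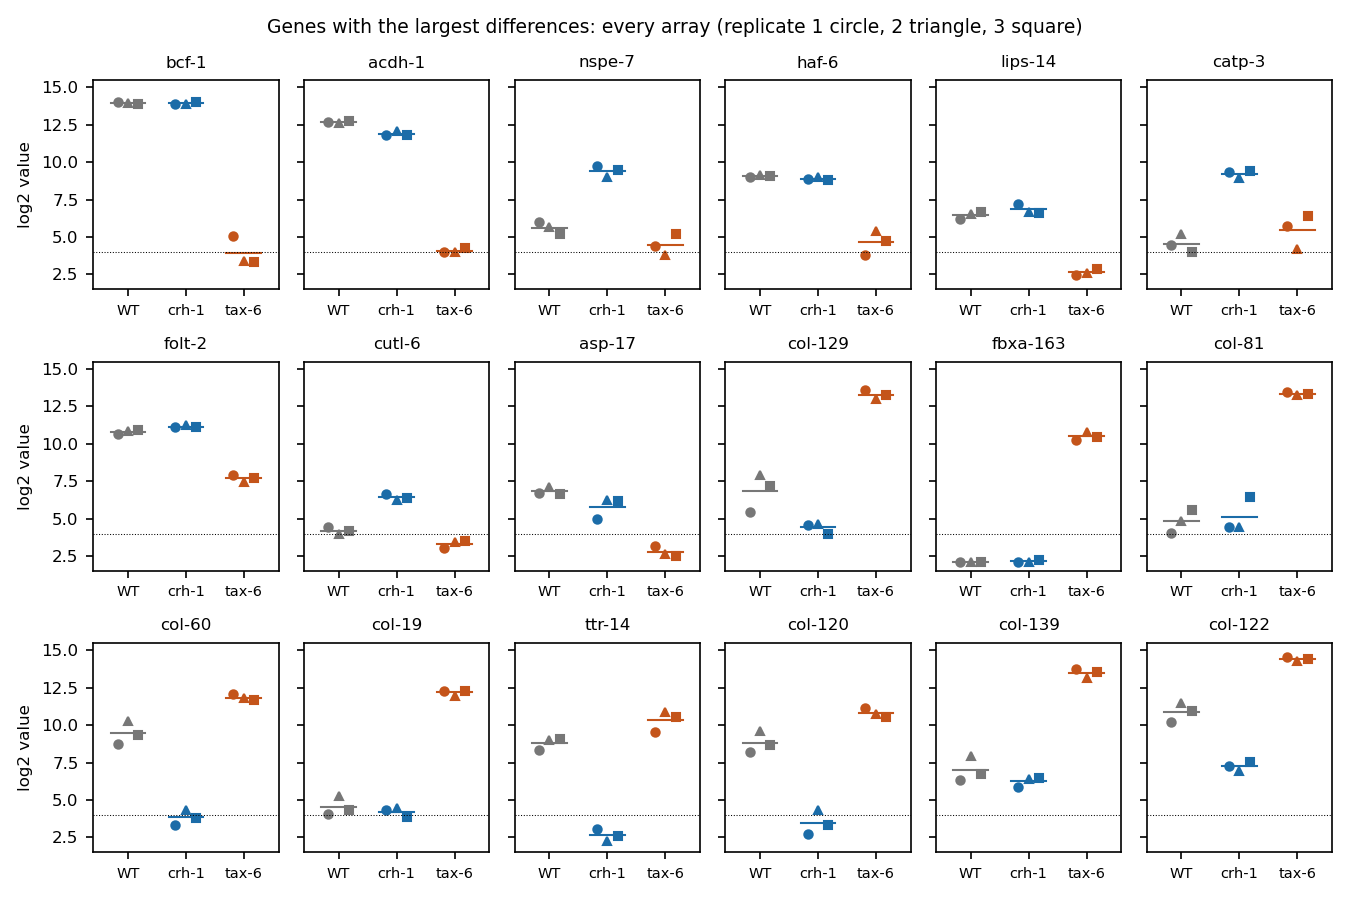
Log2 level on every array of WT, crh-1 null and tax-6 null (3 each, bars are means) for the 9 class-named genes with the largest difference each way; the dotted line is the detection level of 4. The first 9 panels, bcf-1 to asp-17, are higher in crh-1 null and the last 9, col-129 to col-122, higher in tax-6 null. The WT arrays sit with crh-1 null for bcf-1, with tax-6 null for catp-3 and between the strains for col-60.

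Many of the largest differences in favour of tax-6 null were those of cuticle collagens, which are secreted by the epidermis and built into a new cuticle at each moult. Of 107 measured members of the col class, 74 were called higher in tax-6 null and 6 higher in crh-1 null, against 16.6% and 21.4% of all genes. The class median difference was -1.23, and 59 were at least 2-fold higher in tax-6 null. A further 21 members did not reach the filter on dim probe sets, and with no such filter the median was -0.80. col-129 stood at 4.58, 4.65 and 3.99 in crh-1 null and 13.60, 13.02 and 13.23 in tax-6 null (-8.88 ± 0.50, adjusted p = 7.4e-08, 470-fold). Its WT arrays, at 5.43, 7.88 and 7.17, lay between the groups, and aak-2 o/e stood at 11.78, 10.78 and 11.64. col-81 (-8.24 ± 0.53), col-60 (-8.01 ± 0.36), col-120 (-7.37 ± 0.40), col-139 (-7.24 ± 0.41), col-122 (-7.17 ± 0.28), col-140 (-7.16 ± 0.38) and col-106 (-6.90 ± 0.34) all differed more than 100-fold. The WT level was not alike among them. col-60 was 8.76, 10.28 and 9.38 in WT, 3.35, 4.36 and 3.82 in crh-1 null and 12.09, 11.79 and 11.67 in tax-6 null, whereas col-81 was 4.03, 4.83 and 5.57 in WT and 4.46, 4.46 and 6.42 in crh-1 null against 13.46, 13.27 and 13.33. col-158 was not detected in crh-1 null and stood at 9.37, 10 and 8.69 in tax-6 null, at least 40.9-fold. Against WT, 71 col genes were higher and 16 lower in tax-6 null, while 29 were higher and 35 lower in crh-1 null. Among all genes 18.7% were higher and 26.3% lower than WT in tax-6 null (45% in all), and 9.88% higher and 10.7% lower in crh-1 null (20.6% in all). Collagen probe sets can bind related transcripts, and 47 of the 107 carry a suffix that marks this. Among the other 60, 40 were called higher in tax-6 null and 4 higher in crh-1 null.

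Collagens that mark a stage or shape the body did not all follow. col-19, a collagen gene of the adult cuticle, stood at 4.34, 4.48 and 3.86 in crh-1 null, 12.31, 11.98 and 12.30 in tax-6 null and 4.10, 5.25 and 4.34 in WT (-7.97 ± 0.33, adjusted p = 6.39e-09, 251-fold). The strut collagens of the adult cuticle, bli-1 and bli-2, were not called between the strains. bli-2 stood at 12.54, 12.24 and 12.15 in crh-1 null and 12.41, 12.15 and 12.29 in tax-6 null (0.02 ± 0.15, adjusted p = 0.919), with 14.04, 14.05 and 13.88 in WT. For bli-1 the difference was 0.44 ± 0.21 (adjusted p = 0.124). col-19 was also high in aak-2 o/e, at 10.31, 9.22 and 10.27. Of 18 body-shape collagens of the dpy, rol, sqt and bli kinds, 5 were called higher in crh-1 null and 7 higher in tax-6 null, with a median of -0.02. dpy-5 was 13.43, 13.30 and 13.10 against 14.65, 14.65 and 14.81 (-1.42 ± 0.11, adjusted p = 8.94e-07). rol-6 differed by -1.15 ± 0.13, rol-8 by -0.67 ± 0.11 and dpy-4 by -0.59 ± 0.10. In each of these 4 the crh-1 null mean lay farther below WT than the tax-6 null mean.

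Hedgehog-related genes encode secreted proteins of the epidermis with roles in moulting. Of 33 measured among 54 on the arrays, 20 were called higher in tax-6 null and 3 higher in crh-1 null (median -0.90). The other members were too dim for the filter, and with no filter on dim probe sets the median was -0.23. grl-25 lay at the floor in WT and crh-1 null, 2.11 to 2.13, and stood at 8.62, 9.96 and 8.22 in tax-6 null, at least 30.6-fold. grl-20 was likewise at 2.11 on all arrays of WT and crh-1 null and stood at 8.82, 9.68 and 7.89 in tax-6 null, at least 27.8-fold. These ground-like genes were detected in tax-6 null and not in the other 2 strains. Both also lay at 2.11 in aak-2 o/e, so they passed the filter through the tax-6 null arrays alone, which fixed their direction. In contrast wrt-4, a warthog gene, was high in WT (mean 11.82), lower in tax-6 null at 10.03, 9.92 and 10.05 and lowest in crh-1 null at 7.59, 7.65 and 6.82 (-2.64 ± 0.19, adjusted p = 8.24e-07). The patched-related receptors, which resemble the receptor of hedgehog in other animals, divided evenly, with 7 of 20 higher in crh-1 null and 8 higher in tax-6 null. ptr-6 (3.24, 3.06 and 2.78 against 6.49, 6.17 and 6.21) and ptr-20 (3.31, 3.43 and 3.81 against 6.78, 6.42 and 6.11) were not detected in crh-1 null. ptr-12 was higher there, at 7.42, 7.32 and 7.49 against 5.98, 5.98 and 6.03 (1.41 ± 0.11, adjusted p = 9.53e-07).

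Moulting and apical matrix genes leaned to crh-1 null, 13 of 34 higher there and 5 higher in tax-6 null (median 0.16), and the 5 was 3 without crh-1 null replicate 2 or tax-6 null replicate 3. let-653, which encodes a matrix protein of epithelial tubes, stood at 9.58, 9.56 and 9.63 against 7.45, 7.98 and 7.59 (1.92 ± 0.22, adjusted p = 3.87e-05). lpr-1, a lipocalin gene of the same tubes, differed by 1.69 ± 0.13, the matrix gene let-4 by 1.61 ± 0.20 and the cuticle matrix gene noah-2 by 1.00 ± 0.11. In each the crh-1 null and tax-6 null arrays did not overlap, as was so for 49.9% of all genes, and the first 3 were above WT in crh-1 null. The nuclear receptor nhr-23, which drives moulting and whose level cycles within each larval stage, stood at 9.35, 9.41 and 9.41 in crh-1 null, 8.28, 8.49 and 8.64 in tax-6 null and 8.19, 7.91 and 8.14 in WT (0.92 ± 0.13, adjusted p = 0.000181). lin-29, a zinc-finger factor of the larval-to-adult switch, stood at 7.97, 7.47 and 7.36 against 6.68, 7.13 and 6.92 (0.69 ± 0.19, adjusted p = 0.0155). Leaving out crh-1 null replicate 1 ended this call (adjusted p = 0.0709). Of 18 developmental timing genes, 15 were not called. Many cuticle and moulting genes are known to cycle within each larval stage, and the part of stage within L4 in these differences was not tested. Astacins, secreted metalloproteases, were higher in tax-6 null in 7 of 17 and higher in crh-1 null in 2. nas-20 (3.44, 3.74 and 3.88 against 6.42, 7.16 and 7.43) and nas-7 (4.97, 5.87 and 6.48 against 8.88, 8.88 and 8.66) were higher in tax-6 null, and nas-24 was higher in crh-1 null (at least 2.24-fold).

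**Figure D3:**
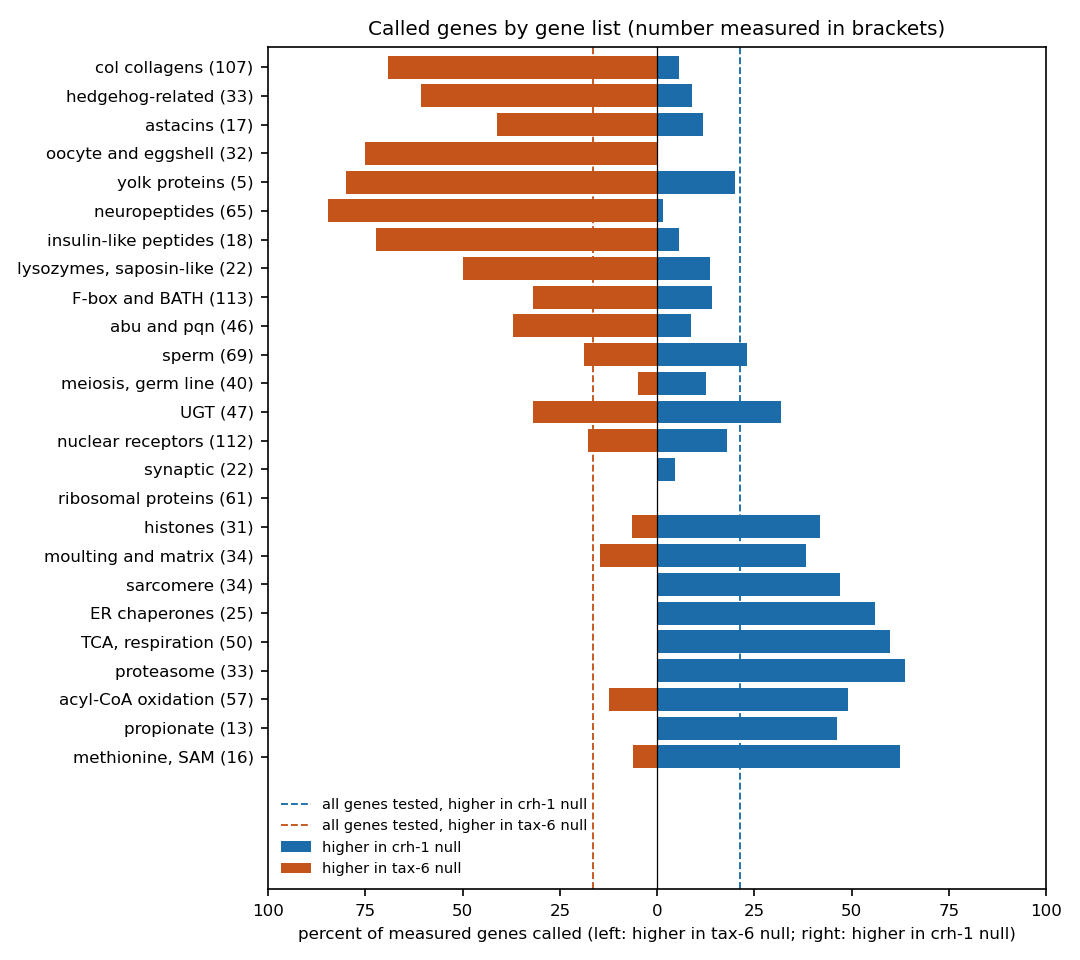
Percent of the measured genes of 25 gene lists called higher in crh-1 null (blue, right) or in tax-6 null (orange, left), with the number measured in brackets; the dashed lines are all 10365 genes, 21.4% and 16.6%. Neuropeptides, yolk and eggshell genes reach farthest to the left, the proteasome and methionine lists farthest to the right, and the ribosomal proteins have no bar.

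Genes of the egg were higher in tax-6 null. Of 32 oocyte and eggshell genes measured, 24 were called higher there, 8 were not called and none was called higher in crh-1 null by limma, with 1 at an unadjusted p under 0.05. perm-4, needed for the permeability barrier of the egg, stood at 6.33, 6.73 and 5.96 in crh-1 null and 11.19, 11.03 and 11.12 in tax-6 null (-4.77 ± 0.24, adjusted p = 2.77e-08, 27.4-fold). The chondroitin proteoglycan genes of the eggshell, cpg-3 and cpg-2, differed by -3.97 ± 0.26 and -2.83 ± 0.17, and perm-2 by -3.24 ± 0.20. WT lay between the strains for all 4, as with perm-4 at 8.19, 8.71 and 8.61. The mean of the list was 7.34, 7.36 and 7.24 in crh-1 null, 7.64, 7.83 and 7.73 in WT and 8.66, 8.5 and 8.54 in tax-6 null.

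Yolk proteins are made in the gut of the adult hermaphrodite and carried to the oocytes. All 5 vit genes measured were called, 4 higher in tax-6 null and vit-1 higher in crh-1 null. vit-2 stood at 6.89, 6.84 and 6.54 in crh-1 null, 9.35, 9.70 and 10.42 in tax-6 null and 7.05, 6.96 and 7.11 in WT (-3.07 ± 0.24, adjusted p = 1.51e-06). vit-5 was at the floor in crh-1 null, 2.17, 2.22 and 2.18, and stood at 5.41, 5.33 and 7.70 in tax-6 null, with 5.18, 6.13 and 4.89 in WT. vit-4 was not detected in crh-1 null, at 2.97, 3.11 and 3.11 against 6.30, 6.72 and 8.60, at least 9.23-fold. So vit-2 differed from WT in tax-6 null, and vit-4 and vit-5 in crh-1 null. vit-1 was 9.06, 8.72 and 8.80 against 6.86, 6.82 and 7.79 (1.71 ± 0.24, adjusted p = 0.000162). The log2 difference of vit-6 lay near the threshold (-0.64 ± 0.19, adjusted p = 0.0197). Its call was lost without tax-6 null replicate 3 (-0.42) or crh-1 null replicate 3 (-0.53), among 4 alternatives that lost it (adjusted p up to 0.0817). Of the 5 probe sets, 3 can bind related transcripts.

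Sperm genes divided by kind. Of 69 measured, 16 were called higher in crh-1 null and 13 higher in tax-6 null (42% called, near the 37.9% of all genes). These counts moved with single arrays, the 16 to 10 without crh-1 null replicate 1, and the 13 to 4, 7 and 6 without crh-1 null replicate 2, crh-1 null replicate 3 or tax-6 null replicate 3. By gene class, chosen after these values were seen, 14 of 23 spe genes were higher in crh-1 null and none in tax-6 null by limma, with 1 at an unadjusted p under 0.05. Of 23 genes of the msp class, which encodes the major sperm protein of the sperm cytoskeleton, none was higher in crh-1 null by limma or at an unadjusted p under 0.05 and 11 were higher in tax-6 null. The 11 fell to 3 without crh-1 null replicate 2, to 6 without its replicate 3 and to 5 without tax-6 null replicate 3. The 14 fell to 8 without crh-1 null replicate 1 and to 9 without crh-1 null replicate 2 or tax-6 null replicate 1 or 2. The mean of the spe class was 6.72, 6.60 and 6.46 in crh-1 null and 5.87, 6.04 and 6.19 in tax-6 null, and that of the msp class 13.78, 13.60 and 13.59 against 14.03, 13.84 and 13.93. Neither pair of groups overlapped, and they ran in opposite directions. spe-44, a regulator of the sperm programme, stood at 8.96, 8.80 and 8.93 against 7.44, 8.21 and 8.01 (1.01 ± 0.17, adjusted p = 0.000789), and spe-4 differed by 1.20 ± 0.13. fer-1, needed for membrane fusion in sperm, was 4.62, 4.49 and 4.51 in crh-1 null and not detected in tax-6 null. All 23 msp probe sets can bind related transcripts, so this class cannot be read gene by gene.

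Genes of meiosis and the germ line were mostly level, with 33 of 40 not called. Their counts, 5 higher in crh-1 null and 2 higher in tax-6 null, turned to 3 and 7 without tax-6 null replicate 1, whose list mean was 7.44 against 8.05 and 7.96 in the others. The 5 was also 2 or 3 without 5 other arrays, which were WT replicate 1, crh-1 null replicates 1 and 3 and aak-2 o/e replicates 1 and 2. Of 29 DNA replication genes, 27 were not called. Of 31 histone genes, 13 were higher in crh-1 null and 2 higher in tax-6 null. his-4 stood at 8.67, 8.43 and 8.66 against 6.67, 6.52 and 6.34 (2.08 ± 0.15, adjusted p = 5.87e-07). Probe sets that can bind related transcripts made up 21 of the 31, and of the other 10, 1 was called, higher in crh-1 null. The 3 polo kinases included plk-2, an organiser of meiotic chromosomes, at 0.47 ± 0.11 (adjusted p = 0.00573), while plk-1 (-0.17 ± 0.13) and plk-3 (-0.27 ± 0.19) were not called.

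Neuropeptide genes, which encode short signalling peptides of neurons, were nearly all higher in tax-6 null. Of 65 measured, 55 were called higher in tax-6 null, 1 higher in crh-1 null and 9 were not called, with a median of -1.11. nlp-81 stood at 6.05, 5.89 and 5.88 in crh-1 null, 7.79, 7.42 and 7.41 in tax-6 null and 5.48, 5.67 and 5.51 in WT (-1.60 ± 0.12, adjusted p = 1.21e-06). flp-4, which encodes FMRFamide-like peptides, stood at 7.12, 6.83 and 6.94 against 8.45, 8.22 and 8.29 (-1.36 ± 0.12, adjusted p = 5.18e-06). flp-5 was 9.11, 9.03 and 9.06 against 11.38, 10.52 and 10.76, and nlp-18 was 9.11, 9.16 and 9.19 against 10.34, 10.13 and 10.17. For these 4 genes the difference of crh-1 null from WT ran from -0.02 to 0.39, and the tax-6 null arrays lay above both other strains. Across the list, 56 genes were higher and 1 lower in tax-6 null than in WT, and 6 were higher in crh-1 null than in WT. The list mean was 9.02 on tax-6 null replicate 1 and 8.26 and 8.35 on the other 2. Without replicate 1, 53 genes were called higher in tax-6 null and the median was -0.81.

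Insulin-like peptides, most of which are made by neurons, were higher in tax-6 null in 13 of 18 and higher in crh-1 null in 1 (median -0.99). ins-35 stood at 8.79, 9.06 and 8.89 against 10.95, 11.04 and 10.99 (-2.08 ± 0.18, adjusted p = 3.44e-06). ins-24 stood at 3.92, 4.42 and 4.51 against 7.91, 6.62 and 6.69 (-2.79 ± 0.32), and ins-30 differed by -1.54 ± 0.20. ins-11 was not detected in crh-1 null and was at least 3.1-fold higher in tax-6 null. As with the neuropeptides, replicate 1 of tax-6 null was the highest array for ins-24, ins-30 and ins-11. The core of the insulin pathway itself divided 3 and 3 of 14 (42.9% called, near the 37.9% of all genes). The 3 higher in tax-6 null were 1 without crh-1 null replicate 2, tax-6 null replicate 2 or tax-6 null replicate 3. Called genes of this core include ist-1, an insulin receptor substrate homologue (-0.63 ± 0.10, adjusted p = 0.000605). sod-3, a mitochondrial superoxide dismutase gene often used to read out DAF-16, was 4.38, 4.38 and 4.36 against 6.33, 6.46 and 6.06 (-1.91 ± 0.15, adjusted p = 1.82e-06).

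The machinery that makes and releases these peptides moved less uniformly. Of 15 genes for peptide processing and dense-core vesicles, 6 were called higher in tax-6 null and 2 higher in crh-1 null. The processing enzymes egl-21, a carboxypeptidase (10.11, 9.82 and 10.03 against 11.22, 10.97 and 10.91, -1.04 ± 0.13), and pghm-1, which amidates peptides (-1.12 ± 0.16), were higher in tax-6 null. The proprotein convertase gene aex-5 was higher in crh-1 null, at 8.10, 8.02 and 8.12 against 5.44, 6.59 and 6.04 (2.05 ± 0.24, adjusted p = 3.64e-05). Synaptic vesicle and release genes were near level. Of 22, 1 was called (3 without aak-2 o/e replicate 1), rab-3 (8.47, 8.70 and 8.49 against 8.11, 8.05 and 7.94, 0.52 ± 0.10, adjusted p = 0.00202), and the median was 0.01. The list mean lay between 7.32 and 7.47 on all 6 arrays. Of 7 transmitter identity genes detected, bas-1, an enzyme of serotonin and dopamine synthesis, was higher in crh-1 null (0.93 ± 0.14, adjusted p = 0.000308). Also called was snf-11, the GABA transporter, at -0.50 ± 0.17 (adjusted p = 0.0333, a call lost under 6 alternatives). Of 51 sensory and cilia genes on the arrays, 12 were measured and the others were too dim for the filter. Of these 12, 4 were higher in tax-6 null and 1 in crh-1 null (2 without crh-1 null replicate 3 or tax-6 null replicate 1). The share called was 41.7%, against 37.9% of all genes. The diacetyl receptor odr-10 was not detected in crh-1 null (3.27, 3.23 and 3.23) and stood at 5.76, 4.46 and 4.75 in tax-6 null.

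**Figure D4:**
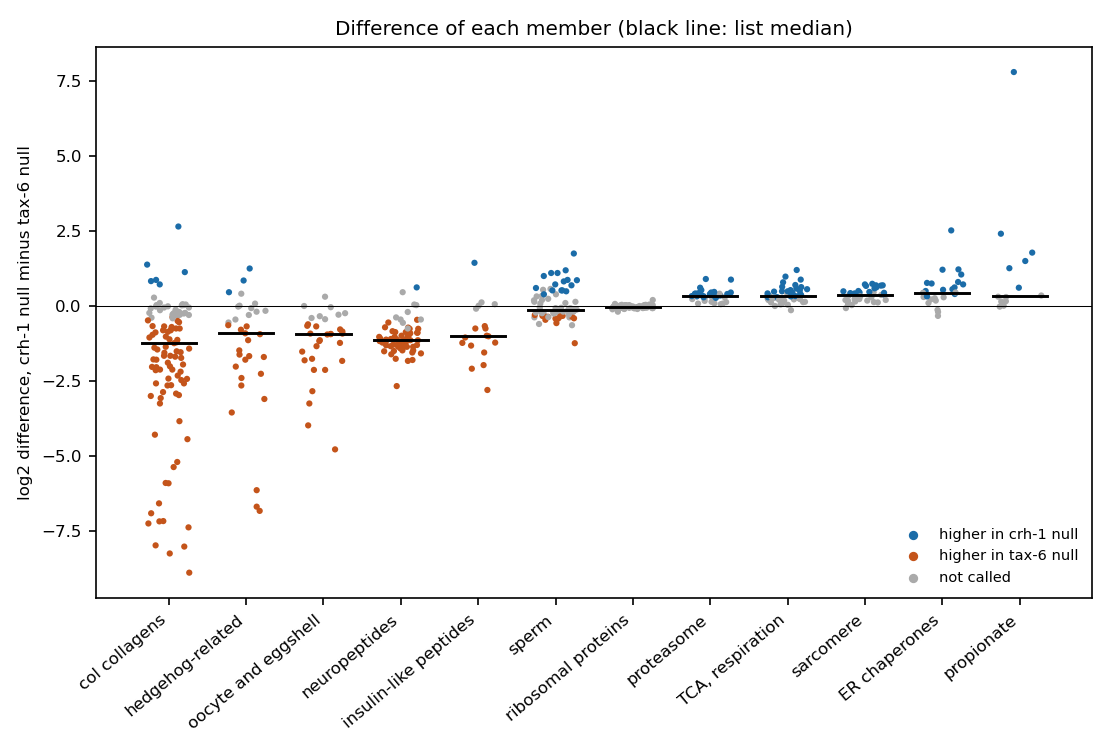
Difference of every measured member of 12 gene lists, crh-1 null minus tax-6 null on the log2 scale; points are genes, coloured by call, and black lines are list medians. Neuropeptides cluster near -1.11, collagens run from 2.66 to -8.88, ribosomal proteins stay between -0.18 and 0.21, and acdh-1 stands alone at 7.81 among the propionate genes.

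The propionate shunt was lower in tax-6 null beyond acdh-1. It is a side route that breaks down propionate when the vitamin B12 route is idle. Of 13 propionate genes, 6 were called higher in crh-1 null and none higher in tax-6 null by limma, nor at an unadjusted p under 0.05. The dehydrogenase gene hphd-1 stood at 11.46, 11.46 and 11.64 in crh-1 null, 9.07, 9.06 and 9.20 in tax-6 null and 11.95, 11.97 and 11.96 in WT (2.42 ± 0.11, adjusted p = 1.11e-08). The hydrolase gene hach-1 was 10.32, 10.30 and 10.39 against 9.13, 9.03 and 9.04 (1.27 ± 0.10), and the hydratase gene ech-6 was 12.87, 13.08 and 13 against 11.58, 11.41 and 11.44 (1.51 ± 0.11). Each of these enzymes acts in the shunt, and in each the tax-6 null arrays lay below WT and crh-1 null. Against WT, 6 of the 13 genes were called lower in tax-6 null. In crh-1 null 5 were called lower than WT and 1 higher. For hphd-1 the differences from WT were -2.85 in tax-6 null and -0.44 in crh-1 null. The nuclear receptor nhr-68, known to switch the shunt on, stood at 8.91, 9.19 and 9.10 against 7.23, 7.25 and 7.35, with a WT mean of 9.89 (1.79 ± 0.17, adjusted p = 6.65e-06). In the methionine and S-adenosylmethionine list, which includes the B12-dependent route, 10 of 16 were higher in crh-1 null and 1 higher in tax-6 null. The synthetase gene sams-1 stood at 13.84, 13.69 and 13.82 against 13.18, 13.09 and 13.06 (0.68 ± 0.10), ahcy-1 differed by 0.71 ± 0.10 and cbs-2, a cystathionine synthase gene, by 1.19 ± 0.13. The exception was sams-5 (-0.83 ± 0.15, adjusted p = 0.000989).

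Fatty acid oxidation genes were more often higher in crh-1 null, 28 of 57 acyl-CoA genes against 7 (median 0.40), a list that shares acdh-1 and ech-6 with the propionate genes. Among the exceptions acdh-6 was not detected in crh-1 null, at 2.86, 3.33 and 2.51, and stood at 7.4, 7.11 and 7.33 in tax-6 null and 8.15, 8.87 and 8.21 in WT (at least 9.74-fold). Fatty acid synthesis divided evenly, 5 and 5 of 20, but the 5 higher in tax-6 null were 2 or 3 without any single one of 7 arrays (WT replicates 1 and 3, all 3 of crh-1 null, tax-6 null replicate 1 and aak-2 o/e replicate 3). Within it fat-7, a desaturase that makes oleic acid, was 5.26, 5.48 and 5.48 against 9.80, 9.38 and 9.12, with 6.62, 6.95 and 6.78 in WT (-4.03 ± 0.19, adjusted p = 1.97e-08, 16.3-fold). The elongase genes elo-2 (0.72 ± 0.11) and elo-7 (1.11 ± 0.13) were higher in crh-1 null. Of 25 lipase and lipid-binding genes, 9 were higher in tax-6 null, among them lips-7 (4.67, 4.33 and 5.17 against 8.38, 8.03 and 8.37), and 4 higher in crh-1 null.

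Genes of mitochondrial energy metabolism were higher in crh-1 null by small steps. Of 50 genes of the citric acid cycle and respiratory chain, 30 were called higher there and none higher in tax-6 null by limma or at an unadjusted p under 0.05 (median 0.33). The count was 16, 14 and 17 without crh-1 null replicate 1, crh-1 null replicate 2 or tax-6 null replicate 3. The succinyl-CoA ligase gene sucg-1 stood at 10.54, 10.65 and 10.36 against 9.04, 9.53 and 9.37 (1.21 ± 0.16, adjusted p = 0.000138), cox-18 differed by 0.99 ± 0.13, the malate dehydrogenase gene mdh-2 by 0.89 ± 0.10 and aco-1 by 0.71 ± 0.11. In these 4 genes crh-1 null was within 0.2 of the WT mean. Across the list 19 genes were lower in tax-6 null than in WT and 1 was lower in crh-1 null than in WT.

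Genes of protein turnover and folding were higher in crh-1 null in most of the called cases. Of 33 proteasome subunits, 21 were called higher in crh-1 null and none higher in tax-6 null by limma or at an unadjusted p under 0.05 (median 0.35). The count was 11, 9 and 10 without crh-1 null replicate 1, crh-1 null replicate 2 or tax-6 null replicate 3. The list mean was 11.19, 11.24 and 11.17 in crh-1 null and 10.82, 10.86 and 10.84 in tax-6 null, and both lay below the WT arrays, 11.39, 11.41 and 11.37. The regulatory particle genes rpn-6.2 (0.91 ± 0.11), rpt-6 (0.48 ± 0.09) and rpn-8 (0.46 ± 0.11) were among them, as was the core particle gene pas-7 (0.89 ± 0.19), which had tax-6 null arrays at 9.98, 9.10 and 9.32. Of 25 genes for chaperones and enzymes of the endoplasmic reticulum, 14 were higher in crh-1 null and none in tax-6 null by limma or at an unadjusted p under 0.05 (median 0.46). Of the BiP genes, hsp-3 stood at 12.66, 12.72 and 12.78 against 11.27, 11.70 and 11.51 (1.23 ± 0.13, adjusted p = 1.79e-05). hsp-4 stood at 12.09, 11.74 and 11.80 against 10.33, 10.84 and 10.79 (1.22 ± 0.17). Both were higher in crh-1 null, where neither was called against WT (hsp-3 0.09, adjusted p = 0.75, hsp-4 0.50, adjusted p = 0.0644). In tax-6 null both were called lower than WT (-1.14 and -0.72). The largest of the list was ckb-2, a choline kinase gene, at 10.66, 10.50 and 10.38 against 8.15, 7.66 and 8.14 (2.53 ± 0.21, adjusted p = 2.07e-06), where crh-1 null was above WT.

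The heat shock list went against its chaperones in 1 gene. sip-1, a small heat shock protein of oocytes and embryos, stood at 9.15, 9.25 and 9.22 in crh-1 null, 13.61, 13.74 and 13.72 in tax-6 null and 10.18, 10.61 and 10.11 in WT (-4.49 ± 0.19, adjusted p = 6.76e-09, 22.4-fold). It lay on the same side as the eggshell genes. The chaperones hsp-60 (1.10 ± 0.11), hsp-110 (0.66 ± 0.15) and hsp-1 (0.61 ± 0.11) were higher in crh-1 null, and 11 of 16 genes were not called. The 4 higher in crh-1 null were 7 without aak-2 o/e replicate 1. The abu and pqn genes, secreted glutamine-rich proteins many of which belong to the pharyngeal cuticle, were higher in tax-6 null in 17 of 46 and higher in crh-1 null in 4. pqn-13 stood at 5.56, 5.40 and 4.72 against 7.25, 8.06 and 8.09 and abu-12 at 5.63, 5.56 and 5.70 against 7.73, 7.91 and 7.90, with both strains below WT. The list as a whole stood otherwise, with 20 of 46 called above WT and 5 below it in tax-6 null, and 10 above and 6 below in crh-1 null. Of these probe sets 23 of 46 can bind related transcripts.

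Ribosomal proteins of the cytosol were level. None of 61 was called in either direction by limma, nor did any pass an unadjusted p of 0.05, and for 60 the 95% interval of the difference lay within 0.5 either way. The median was -0.01. rps-28 stood at 14.85, 14.82 and 14.80 against 15.03, 14.86 and 14.87 (-0.09 ± 0.09).

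**Figure D5:**
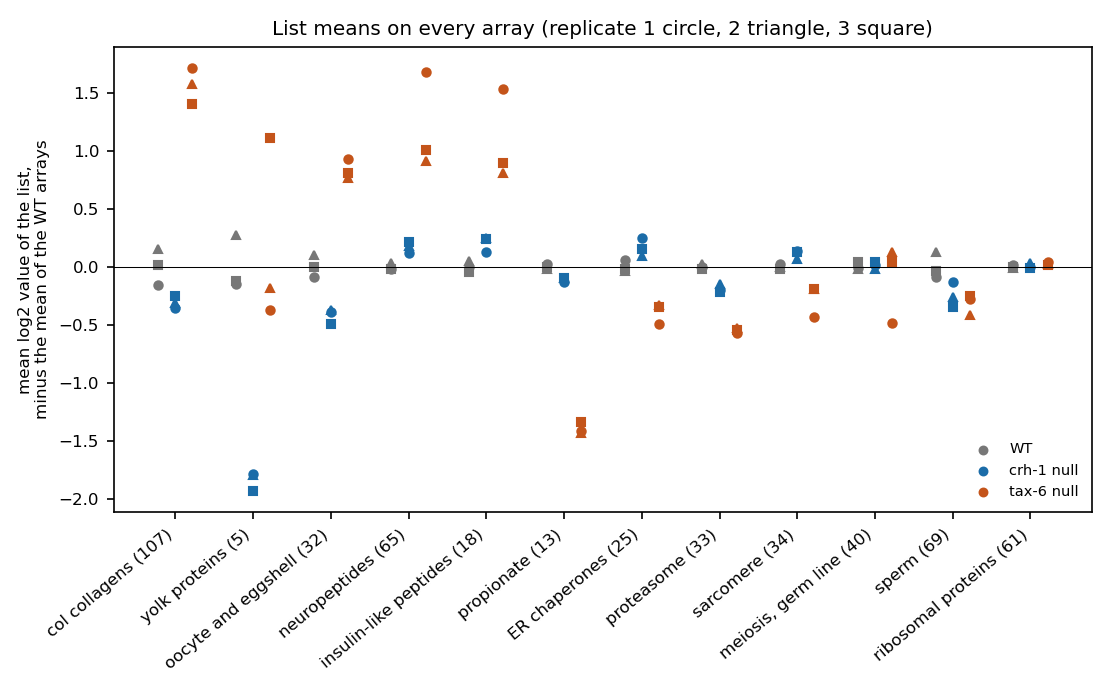
Mean log2 level of 12 gene lists on every array, less the mean of the 3 WT arrays; symbols mark the replicate. The tax-6 null arrays lie above both other strains for collagens, eggshell genes, neuropeptides and insulin-like peptides and below them for the propionate, proteasome and sarcomere lists, crh-1 null is lowest for yolk, and tax-6 null replicate 1 stands away from the other tax-6 null arrays for neuropeptides and meiosis genes.

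Muscle genes were higher in crh-1 null in 16 of 34 sarcomere genes and in none of tax-6 null by limma or at an unadjusted p under 0.05 (median 0.38). unc-54, the main myosin heavy chain of body wall muscle, stood at 13.42, 13.39 and 13.38 against 12.57, 12.88 and 12.94 (0.60 ± 0.11, adjusted p = 0.00149). The troponin gene tni-1 differed by 0.69 ± 0.10, the attachment genes pat-4 by 0.73 ± 0.11 and unc-95 by 0.70 ± 0.09. Replicate 1 of tax-6 null had the lowest list mean, 11.07 against 11.31 and 11.31, but all 3 lay below the crh-1 null arrays, 11.57 to 11.64. Of 27 calcium handling genes, 20 were not called and 5 were higher in crh-1 null. That 5 was 3 without crh-1 null replicate 1 or 3 or tax-6 null replicate 2 or 3. The calreticulin gene crt-1 stood at 15.01, 15.05 and 14.99 against 14.46, 14.54 and 14.51 (0.51 ± 0.11, adjusted p = 0.00332), and the exchanger gene ncx-1 was 0.46 ± 0.11 higher. The exchanger gene ncx-3 went the other way (-0.88 ± 0.14).

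Markers of gut, pharynx, epidermis, vulva and uterus were called in both directions, and 1 glia marker was called higher in crh-1 null. Of 12 epidermis markers 8 were not called and 3 were higher in crh-1 null (1 without crh-1 null replicate 1, tax-6 null replicate 2 or tax-6 null replicate 3). Not called were also, of 17 gut markers 8, of 7 glia markers 6, of 14 vulva and uterus genes 12 and of 15 pharynx genes 6. The share called was 52.9% for gut, 60% for pharynx and 33.3% for epidermis, against 37.9% of all genes. It was 14.3% each for glia and for vulva and uterus. The mean of the epidermis list was 9.54 to 9.56 in crh-1 null and 9.52 to 9.56 in tax-6 null, and that of the gut list 10.6 to 10.7 against 10.6 to 10.84, so both overlapped between strains. Single markers moved both ways. In the epidermis mup-4, an attachment protein between skin and muscle, was 7.41, 7.56 and 8.20 against 10, 10.11 and 10.07 (-2.34 ± 0.25), and the larval collagen dpy-7 was 0.84 ± 0.15 higher in crh-1 null. In the gut the esterase gene ges-1 was 8.65, 8.69 and 8.5 against 7.48, 7.75 and 7.68 (0.97 ± 0.11), the protease gene cpr-1 was 1.36 ± 0.11 higher in crh-1 null, and the metallothionein gene mtl-1 was higher in tax-6 null (-2.36 ± 0.30). In the pharynx phat-4 (1.41 ± 0.22) and phat-5 (-2.73 ± 0.44) went opposite ways. The 4 pharynx genes higher in tax-6 null were 2 without tax-6 null replicate 1 or 3. The cadherin gene cdh-3 of the vulva and uterus list was 1.18 ± 0.17 higher in crh-1 null.

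Among families that act on foreign compounds, 42.4% of cytochrome P450 genes, 37.9% of glutathione transferases and 63.8% of UDP-glucuronosyltransferases were called in either direction, against 37.9% of all genes. UDP-glucuronosyltransferases were higher in crh-1 null in 15 of 47 and in tax-6 null in 15. ugt-18 stood at 3.69, 3.69 and 3.78 against 8.19, 8.26 and 8.05, at least 17.9-fold, while ugt-32 was higher in crh-1 null (2.40 ± 0.18). Of 29 glutathione transferases, 6 were higher in tax-6 null and 5 in crh-1 null, the latter 11 without tax-6 null replicate 1. gst-30 was at 2.11 on every array of WT and crh-1 null and stood at 7.72, 6.73 and 6.57 in tax-6 null, at least 8.03-fold. gst-38 stood at 9.85, 10.21 and 10.13 against 13.71, 13.17 and 13.27 (-3.32 ± 0.16, 9.97-fold), and gst-24 differed by -2.96 ± 0.14 with both strains above WT. Among 33 cytochromes P450, 9 were higher in crh-1 null, such as cyp-13B1 (2.79 ± 0.24), and 5 in tax-6 null, such as cyp-37B1 (-4.14 ± 0.27). Among nuclear receptors 20 were higher in each strain and 72 were not called (35.7% called).

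Lysozyme and infection response genes were more often higher in tax-6 null. Lysozymes and saposin-like genes were higher there in 11 of 22 and higher in crh-1 null in 3. lys-7 stood at 10.32, 10.32 and 10.27 against 12.20, 12.17 and 11.98 (-1.81 ± 0.10, adjusted p = 6.73e-08), whereas ilys-5 was 14.22, 14.39 and 14.39 against 12.21, 12.08 and 12.30 (2.13 ± 0.10). Of 16 infection response genes, 7 were higher in tax-6 null and 3 in crh-1 null. irg-1 stood at 4.25, 4.63 and 4.24 in WT, 6.68, 7.54 and 7.36 in crh-1 null and 8.92, 9.22 and 9.07 in tax-6 null (-1.87 ± 0.23), so both mutants were above WT and tax-6 null was higher. C-type lectins divided 17 and 17 of 68, with clec-87 (-3.85 ± 0.20) and clec-52 (-3.17 ± 0.15) higher in tax-6 null. The F-box and BATH families, substrate adaptors of ubiquitin ligases, had 36 of 113 higher in tax-6 null and 16 in crh-1 null. fbxa-163 lay at 2.11, 2.11 and 2.22 in crh-1 null and at 10.26, 10.77 and 10.44 in tax-6 null, at least 90-fold higher in tax-6 null, and it was at 2.11 on every WT array. Cathepsin-like proteases were higher in crh-1 null in 6 of 20 and in tax-6 null in 1 (3 without tax-6 null replicate 1), with cpr-5 (1.38 ± 0.12) and cpr-9 (1.03 ± 0.11) among them. Of the 20, 35% were called, near the 37.9% of all genes.

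Transthyretin-like proteins are secreted and of mostly unknown role. Of 35, 10 were higher in tax-6 null and 5 in crh-1 null, the latter 2 or 3 without any single array of crh-1 null or without tax-6 null replicate 2 or 3. The share called was 42.9%, against 37.9% of all genes. ttr-14 was not detected in crh-1 null (3.09, 2.29 and 2.63) and stood at 9.55, 10.88 and 10.54 in tax-6 null and 8.35, 8.99 and 9.08 in WT, at least 80.2-fold. ttr-21 was 5.77, 5.42 and 5.48 in WT, 8.82, 9.06 and 8.97 in crh-1 null and 10.18, 9.71 and 9.99 in tax-6 null (-1.02 ± 0.19), again above WT in both. Notch list genes were called in 5 of 14 (35.7%, near the 37.9% of all genes), 3 of them higher in tax-6 null (6 without tax-6 null replicate 2). dos-2, which encodes a secreted Notch co-ligand of the DOS family, stood at 9.31, 9.50 and 9.36 in WT and 3.44, 3.75 and 2.71 in crh-1 null, below detection, and at 6.36, 5.50 and 5.95 in tax-6 null (at least 3.82-fold). The ligand gene dsl-5 was detected in crh-1 null, at 5.74, 4.08 and 4.38, and not in tax-6 null. The pair pud-3 and pud-4 was far below WT in both, pud-3 at 7.54, 7.41 and 7.62 against 7.25, 6.33 and 5.77 with a WT mean of 10.71, and pud-4 was not called between them (0.60 ± 0.23, adjusted p = 0.0585). For pud-3 the difference was 1.07 ± 0.29 (adjusted p = 0.0134), lost when the other 6 arrays were left out of the fit and with no filter on dim probe sets (adjusted p up to 0.0649).

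Genes detected in 1 strain and not in the other were counted last. On all 3 arrays at a level of 4 or more in crh-1 null and below 4 on all 3 in tax-6 null were 64 genes, and the reverse held for 181. Without tax-6 null replicate 1 the numbers were 94 and 194. F08G2.5 stood at 3.34, 2.56 and 2.93 against 11.16, 11.97 and 11.59, at least 190-fold, C14F11.4 was at least 77.4-fold and C35B1.4 at least 62.7-fold higher in tax-6 null. C14F11.4 had a WT mean of 8.05 and lay farther from WT in crh-1 null (log2 difference -4.92) than in tax-6 null (2.22). F08G2.5 (-1.36 in crh-1 null and 7.27 in tax-6 null) and C35B1.4 (-1.82 and 4.44) lay farther from WT in tax-6 null. ZK813.1 lay at 2.11 on all arrays of WT and crh-1 null and at 9.50, 9.22 and 9.31 in tax-6 null, at least 40.6-fold. F09C6.10 (6.96, 6.43 and 6.33 against 3.05, 3.36 and 2.99) and F07C4.6 (6.49, 6.23 and 6.26 against 3.50, 3.52 and 3.06) were at least 5.96-fold and at least 5.01-fold higher in crh-1 null.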

How the data were processed

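RNA of 12 pools was measured on Affymetrix arrays, 1 array per pool. The authors deposited log2 values for 22625 probe sets, for which GCOS 1.4 and the GCRMA method are named, per the submitters' processing notes, without settings. In GCRMA background is removed and arrays are normalized together, so dim values are compressed toward 2.11. Array medians lay between 5.32 and 5.45, and the number of arrays limits the precision.

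Of the probe sets, 20766 had 1 gene symbol in the platform annotation, 887 several and 895 none, and 77 were controls. Symbols were updated through the WBcel235 gene table, in which 20701 were found. Probe sets at 4 or more on at least 3 of 12 arrays were kept (13396), and for each of 10365 genes the brightest probe set over all arrays stood for the gene. A gene at or near the floor in every other strain, such as gst-30, fbxa-163 or ZK813.1, passed only through its bright strain. Its direction was thereby fixed by the filter. Of 2057 genes with several probe sets, 5 had probe sets called in opposite directions.

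limma 3.58.1 in R 4.3.3 fitted 1 mean per strain over all 12 arrays (8 residual and 3.63 prior degrees of freedom). Tests were two-sided, with Benjamini-Hochberg adjustment over the 13396 probe sets. Fold changes against WT share its arrays and are given side by side. Same-numbered arrays of the strains did not vary together (correlations of deviations -0.25, -0.19 and 0.03), so they were not paired. Gene lists are described by counts and medians, and the counts are to be read beside the 37.9% of all genes called. Members too dim for the filter are not counted. On the arrays, 113 of 413 F-box and BATH genes, 68 of 220 C-type lectins and 112 of 254 nuclear receptors were measured. The comparison, lists and members were chosen with earlier results of these data known. Named genes were the 12 largest called differences each way with a class name and 4 with a sequence name, non-overlapping, the 4 smallest adjusted p of each list (all of a list of 8 or fewer), the 6 brightest each way at 4 or more on all 3 arrays of 1 strain and on none of the other, and a fixed list of 21. Scripts were tested on simulated data. No sequence or coordinate was used.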

Additional observations from a re-analysis of the deposited data

How the results depend on the processing

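Of the 222 named genes that were called, 205 kept their call and direction under every alternative that tested them, 17 lost the call under at least 1 and 0 reversed. Most were picked for large differences or small adjusted p, so this share does not carry over to all called genes. Of the 3933 called genes, 3170 were also called with the 6 arrays alone and 3126 without crh-1 null replicate 1. Counts of called genes lay between 3523 and 4084 with quantile normalization, median centring, other filters on dim probe sets, averaged probe sets or a trended robust prior, and were 3297 with the 6 arrays alone and 4908 with array weights. Leaving out each array in turn gave 3173 to 4101 called genes, 1734 to 2321 higher in crh-1 null and 1439 to 1780 higher in tax-6 null. At an adjusted p of 0.01 there were 2648, of which 1391 were higher in crh-1 null and 1257 higher in tax-6 null. Of the counts over all genes, the one to move by more than 1.5 times was that of genes higher in crh-1 null at this threshold (2213 to 1391). Counts of single lists moved further when an array was left out, as given with them, and list counts of 2 or fewer often moved by 1 or 2. The share of called genes higher in crh-1 null was 52.5% to 58.6% over all settings. With the replicate number as a block 3638 genes were called, 3594 of them among the 3933; the numbers do not pair the samples. Detection at a level of 6 in place of 4 gave 132 genes found in crh-1 null and not in tax-6 null, against 64. Differences that lost their call most often were those of div-1, rcan-1 and wrt-2. The planned search of promoters for cAMP response elements was not run, because no promoter sequence was used here. Values near the floor limit what can be said of dim genes.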

Other observations

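Gene classes outside the lists were counted by symbol, taking all 139 classes with at least 8 genes tested; they are described without a test, and the classes named were picked after their counts were seen. Proteins of the mitochondrial ribosome were higher in crh-1 null in 18 of 33 mrpl genes and 13 of 24 mrps genes, and none was called higher in tax-6 null by limma, with 0 mrpl genes and 1 mrps gene at an unadjusted p under 0.05. mrpl-19 stood at 10.06, 10.31 and 9.98 in crh-1 null and 9.24, 9.41 and 9.36 in tax-6 null (0.78 ± 0.11, adjusted p = 0.000241). mrps-27 stood at 8.44, 8.40 and 8.42 against 7.54, 7.57 and 7.55 (0.87 ± 0.15). These groups did not overlap, while the cytosolic ribosomal proteins were level. Short-chain dehydrogenases of the dhs class were higher in crh-1 null in 14 of 25 and none in tax-6 null by limma, with 2 at an unadjusted p under 0.05. dhs-27 stood at 9.20, 9.27 and 9.35 against 7.93, 7.52 and 7.23, with 7.72, 7.60 and 7.61 in WT.

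Cuticlin-like genes, which encode matrix proteins with a zona pellucida domain, were higher in crh-1 null in 11 of 15 cutl genes and higher in tax-6 null in 1. The 11 was 7 without crh-1 null replicate 3. Their class mean was 6.17, 6.07 and 6.21 in crh-1 null, 5.48, 5.44 and 5.40 in tax-6 null and 5.66, 5.49 and 5.61 in WT. Claudin-like genes of the clc class went the other way, with 9 of 16 higher in tax-6 null and 3 higher in crh-1 null. clc-32 lay at 2.11 on all WT and crh-1 null arrays and stood at 8.44, 8.37 and 7.70 in tax-6 null, at least 18-fold higher. Among these strains it could pass the filter through tax-6 null alone, so its direction adds nothing to the class count. The dbd class had 8 of 11 genes higher in tax-6 null and 2 in crh-1 null, with dbd-5 at 4.20, 4.68 and 5.23 against 7.64, 7.51 and 7.87.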
